A study of Mus musculus with 4 samples.

Results

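Chief cells are the enzyme-secreting cells at the base of corpus glands, and 8 genes of their secretory programme are described here out of 34866 rows in the deposited table: Pgc, Pga5, Gif, Chia1, Clps, Lipf, Rab3d and Gper1. They were chosen by name as chief cell secretory genes, with earlier results of these data known, and all 8 were found by matching Ensembl identifiers to mouse symbols. Mucosa of the gastric corpus was sequenced from mice of genotype Muc6 +/+ (2 libraries, called wild type 1 and 2) and Muc6 -/- (2 libraries, called knockout 1 and 2), in a study of the gland mucin gene Muc6 and gastric carcinogenesis. The labels give no age, strain or litter, and they do not state separate animals for the replicate libraries, so the p-values reflect only how far these samples spread, possibly for technical reasons. Total counts were between 20327745 and 27946423 per library.

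Chief cells store inactive digestive enzymes, called zymogens, in large granules and release them on nervous and hormonal signals. They derive from mucous neck cells, the cells that make the Muc6 mucin, and the transcription factor Mist1 (gene Bhlha15) builds their granule and secretory machinery. In mice they also make intrinsic factor, the carrier of vitamin B12.

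The libraries were checked before the results. Muc6 had 8542 and 6000 counts in wild-type libraries 1 and 2, and 0 and 10 in knockout 1 and 2, so the targeted gene followed the labels. Knockout 1 stood apart in regional markers. Of the antral list of Gast, Pdx1 and Nkx6-3, genes of the lower stomach, the summed level was 191 CPM (the depth-scaled count, with TMM factors) in knockout 1, and 0.365 to 2.97 CPM in the other 3 libraries. The Y-linked genes Ddx3y, Kdm5d, Uty and Eif2s3y together reached 136 and 121 CPM in the wild-type libraries but 1.43 and 2.44 CPM in knockout. Y-linked genes are carried by males, so genotype and sex, as read from these transcripts, cannot be told apart for any gene below.

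The 8 genes did not act as a block across the knockout libraries. Of these, 5 of the zymogen and secretory genes were far lower in knockout 1 than in any other library, Pga5 was lower by a smaller step, Rab3d was slightly higher, and Lipf was not counted. In knockout 2 none of the 7 measured genes was more than 4-fold below the wild-type mean. Together the 8 genes took 8.64% of all counts in wild type 1 (95% exact binomial interval 8.63 to 8.65), 19.5% in wild type 2 (19.47 to 19.51), 0.316% in knockout 1 (0.314 to 0.318) and 12.1% in knockout 2 (12.13 to 12.16). Such intervals cover counting error only. The wild-type libraries already differed from each other by more than the knockout 2 share differed from either. In bulk tissue, fewer chief cells and less RNA per chief cell cannot be told apart.

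**Figure D1:**
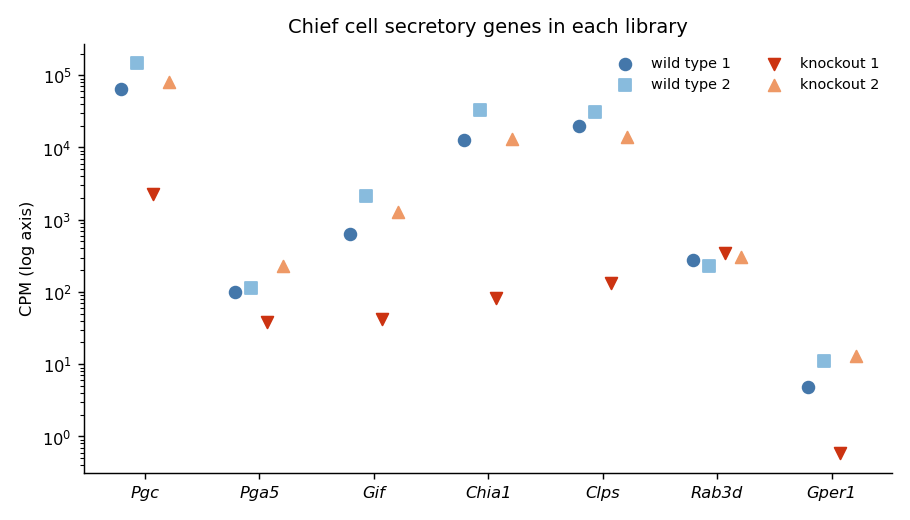
Level of each measured gene (CPM, log axis) in the 4 libraries; each point is 1 library, and Lipf, at 0 counts in all, is not drawn. Knockout 1 lies below the other libraries for Pgc, Pga5, Gif, Chia1, Clps and Gper1, and above them for Rab3d at 345 CPM.

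Pgc encodes pepsinogen C (progastricsin), an aspartic protease zymogen that stomach acid converts to an active enzyme. It lies on the plus strand of chromosome 17 at 47726842 to 47734482 (mm10) and is protein-coding (ENSMUSG00000023987.14). Its level was 63619 and 145529 CPM in wild-type libraries 1 and 2, 2238 CPM in knockout 1 and 79868 CPM in knockout 2. It was the most counted gene in wild type 1, wild type 2 and knockout 2, and ranked 29 in knockout 1. Knockout 1 was 28.4-fold below the lower wild-type library (exact 95% interval of the ratio 28.2 to 28.7), while knockout 2 lay between the wild-type libraries. The groups therefore overlapped. In the fit of both knockout libraries the log2 fold change was -1.35 ± 1.65 (SE, 2 libraries a genotype), and edgeR's quasi-likelihood test gave an adjusted p of 0.757.

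Pga5 encodes the other pepsinogen of the set (ENSMUSG00000024738.6) and lies on the minus strand of chromosome 19 at 10668956 to 10678071. It was at 101 and 114 CPM in the wild-type libraries, 38.6 CPM in knockout 1 and 231 CPM in knockout 2. The wild-type libraries were close, and the knockout libraries fell on opposite sides of them. Knockout 1 was 2.61-fold below the lower wild-type library (2.42 to 2.83) and knockout 2 was 2.03-fold above the higher one (1.93 to 2.13). In the fit of both, the log2 fold change was 0.33 ± 0.87 (SE, 2 libraries a genotype, edgeR adjusted p = 0.897).

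Gif (ENSMUSG00000024682.3, current symbol Cblif) encodes intrinsic factor, which binds vitamin B12 for uptake in the ileum, and lies on the plus strand of chromosome 19 at 11747554 to 11763447. Its level was 631 and 2164 CPM in the wild-type libraries, 42.5 CPM in knockout 1 and 1268 CPM in knockout 2. The wild-type libraries differed 3.43-fold, the widest spread between them among the 7 measured genes. Knockout 1 was 14.8-fold below the lower of them (13.9 to 15.9), and knockout 2 lay between them. The log2 fold change over both knockout libraries was -1.09 ± 1.61 (SE, 2 libraries a genotype, edgeR adjusted p = 0.796).

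Chia1 (ENSMUSG00000062778.12) encodes acidic mammalian chitinase, which digests chitin of insect and fungal food, and lies on the plus strand of chromosome 3 at 106113229 to 106132120. It was at 12810 and 33008 CPM in the wild-type libraries, 81.5 CPM in knockout 1 and 13262 CPM in knockout 2. Clps (ENSMUSG00000024225.4) encodes colipase, the small cofactor that anchors pancreatic lipase to fat droplets, and lies on the minus strand of chromosome 17 at 28558149 to 28560766. It was at 19946 and 31076 CPM in the wild-type libraries, 133 CPM in knockout 1 and 13988 CPM in knockout 2. These were the widest gaps of the set: knockout 1 was 157-fold below the lower wild-type library for Chia1 (150 to 165) and 150-fold for Clps (144 to 155). Clps was the member with both knockout libraries below both wild-type libraries, and Rab3d the member with both above. Of the 14067 genes tested, 23.8% had both knockout libraries below and 26.3% had both above, so 1 of 7 in each direction was not above the background. The log2 fold changes were -1.78 ± 2.10 for Chia1 and -1.85 ± 1.94 for Clps (SE, 2 libraries a genotype, edgeR adjusted p = 0.747 and 0.710).

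Lipf (ENSMUSG00000024768.5) encodes gastric lipase and had 0 counts in all 4 libraries. A floor of 3 counts allows up to 0.121 to 0.156 CPM per library, so the gene was not detectable at this depth in corpus mucosa of either genotype.

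Rab3d (ENSMUSG00000019066.13) encodes a small GTPase on zymogen granule membranes and lies on the minus strand of chromosome 9 at 21907491 to 21918192. It was at 280 and 231 CPM in the wild-type libraries, 345 CPM in knockout 1 and 309 CPM in knockout 2. The knockout libraries were both above the wild-type libraries, by little. The log2 fold change was 0.35 ± 0.21 (SE, 2 libraries a genotype, edgeR adjusted p = 0.483). Gper1 (ENSMUSG00000053647.4) encodes a G protein-coupled receptor for estrogen and lies on the plus strand of chromosome 5 at 139423151 to 139427800. It had 119 and 211 counts in the wild-type libraries, 13 in knockout 1 and 317 in knockout 2, which are 4.80, 10.99, 0.583 and 13.1 CPM. Its ratio of knockout 2 to knockout 1 was 22.5, with a wide counting interval of 13.0 to 42.6 because knockout 1 held so few counts. The log2 fold change was -0.20 ± 1.40 (SE, 2 libraries a genotype, edgeR adjusted p = 0.965).

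No member passed in the comparison of the genotypes, where percent called over all genes tested was 0 by edgeR's quasi-likelihood test at an adjusted p of 0.05. At an unadjusted p under 0.05, 0 of 7 members passed by edgeR with these settings, by DESeq2 or by limma voom, against 15.9% of all genes by edgeR. Rab3d had an unadjusted p of 0.0255 by edgeR when the top 20 genes by abundance were dropped from the library sizes, and of 0.0480 with the sample number as a block (adjusted p 0.236 and 0.208). An edgeR fold change contrasts mean levels, so for genes as uneven as Pgc the knockout value follows knockout 2. For Pgc, limma voom, which averages logs, gave -2.87 against -1.35.

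Each knockout library was then set against the same 2 wild-type libraries. On the log2 CPM scale (prior count 2), the 7 measured members had a median difference of -4.78 in knockout 1 and 0.12 in knockout 2, where the medians over all genes tested were 0.00604 and 0.0327. Without wild type 1 the knockout 2 median was -0.77, so its direction turned on that library. At least 4-fold below the wild-type mean were 5 of 7 members in knockout 1, against 4.66% of all genes, and 0 of 7 in knockout 2, against 0.945%. Knockout 1 was at least 4-fold below knockout 2 for 6 of 7 members, against 4.90% of all genes. Knockout 1 lay below both wild-type libraries for 6 of 7 members and above both for 1, against 39.2% and 41.0% of all genes. Knockout 2 lay below both for 1 and above both for 3, against 34.6% and 36.3%. Those 2 comparisons share the wild-type libraries. Between the wild-type libraries 0 of 7 members were 4-fold apart, against 6.48% of all genes.

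**Figure D2:**
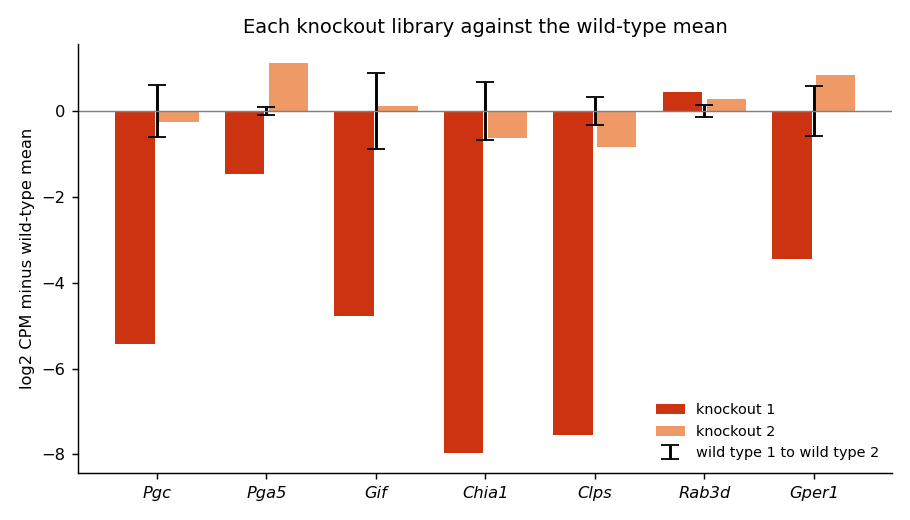
Difference in log2 CPM between each knockout library and the wild-type mean (bars) for the 7 measured genes; the black bracket spans the wild-type libraries. The bars of knockout 1 reach -7.98 for Chia1 and lie outside the bracket for all 7 genes, while those of knockout 2 lie within it for Pgc, Gif and Chia1.

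With knockout 1 alone against wild type, edgeR's quasi-likelihood test called 5.80% of 14672 genes, 3.41% lower and 2.39% higher. Among the members Clps fell (log2 fold change -7.64 ± 0.91 SE, adjusted p = 0.0357) and Pga5 fell (-1.53 ± 0.19, adjusted p = 0.0370), 2 of 7. The 3 other abundant genes had larger standard errors and did not pass: Chia1 at -8.21 ± 1.26, Pgc at -5.62 ± 1.23 and Gif at -5.12 ± 1.29. Neither did Gper1, at -3.81 ± 0.85, or Rab3d, at 0.38 ± 0.20. With knockout 2 alone, 0.0613% of 14679 genes passed, 0.0272% lower and 0.0341% higher, and 0 of 7 members did. Log2 fold changes of the members with knockout 2 alone ran from -0.92 for Clps to 1.05 for Pga5. In both fits the lone knockout library is assumed to vary like the wild-type libraries.

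Within a library, the ratio of one member to another does not depend on scaling. Gif stayed near Pgc, with 9.92 and 14.9 Gif counts per 1000 Pgc counts in the wild-type libraries, 19.0 in knockout 1 and 15.9 in knockout 2. Chia1 was at 201 and 227 per 1000 Pgc counts in the wild-type libraries and 166 in knockout 2, but at 36.4 in knockout 1. Clps was at 314, 214 and 175 in wild type 1, wild type 2 and knockout 2, and at 59.5 in knockout 1. Chia1 and Clps were thus lower relative to Pgc in knockout 1 than in the other libraries. Pga5 and Rab3d were higher relative to Pgc, at 17.2 and 154 per 1000 in knockout 1 and at most 2.89 and 4.40 in the other libraries.

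**Figure D3:**
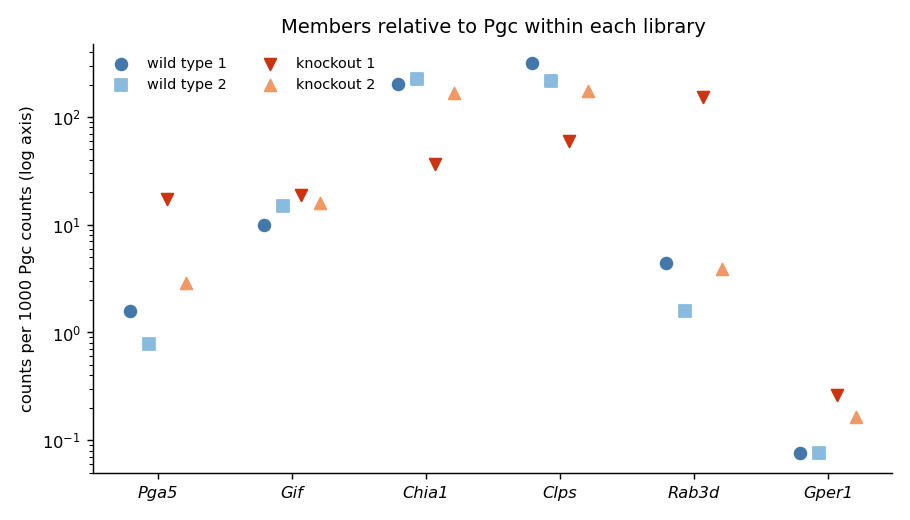
Counts of the other 6 measured genes per 1000 Pgc counts (log axis) in each library; each point is 1 library. In knockout 1, Chia1 and Clps sit below the other libraries, Pga5 and Rab3d above them, and Gif at 19.0 near them. Gper1 is also higher there, at 0.260 against 0.164 in knockout 2, but that point rests on 13 Gper1 counts.

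On a scale per kilobase of annotated exon, the order of levels differed between libraries. In wild type 1 it ran from Pgc at 45840 CPM per kilobase through Clps at 32640, Chia1 at 6731, Gif at 411, Rab3d at 66.8 and Pga5 at 62.5 to Gper1 at 1.89. Rab3d and Pga5 were neighbours that swapped places between the wild-type libraries. In knockout 1 the order was Pgc at 1613, Clps at 218, Rab3d at 82.2, Chia1 at 42.8, Gif at 27.6, Pga5 at 23.9 and Gper1 at 0.230 CPM per kilobase. Pgc stayed first in all 4 libraries, and Chia1 and Gif went below Rab3d in knockout 1.

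Promoter sequence is shown for Pgc and Gif, the member nearest to Pgc in profile, and for Rab3d, the member farthest from Pgc. The bases come from RefSeq on GRCm38.p6 (the mm10 assembly), end before the first annotated transcript base, read 5′ to 3′ on the gene's strand, and have a TATAAA match in capitals.
Pgc, chr17:47726742-47726841, plus strand: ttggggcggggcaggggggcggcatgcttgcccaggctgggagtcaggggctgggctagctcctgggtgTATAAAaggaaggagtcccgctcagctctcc
Gif, chr19:11747459-11747542, plus strand: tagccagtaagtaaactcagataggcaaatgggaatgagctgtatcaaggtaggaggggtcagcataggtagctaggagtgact
Rab3d, chr9:21918200-21918283, minus strand: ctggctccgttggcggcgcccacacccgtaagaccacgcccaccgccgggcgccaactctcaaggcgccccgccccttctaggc

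The 250 bases upstream of the start were searched on both strands in the 6 members with a RefSeq entry; Pga5 and Clps had none. TATAAA, the core of a TATA box, was found in Pgc, Chia1 and Gper1, with their first base at -31, -43 and -29 relative to the start, and in 12.4% of all 32851 promoters. The search did not leave out transcribed bases. Of the last 100 bases before the start, all 100 lay in annotated transcripts for Chia1, its TATAAA match included. For Lipf 61 did, for Gper1 29, for Gif and Rab3d 16 each, and for Pgc 0. CATATG, an E-box form that Mist1 is known to bind, was in none of the 6 and in 3.46% of all. The general E-box CANNTG, which includes CATATG, was in Gif, Chia1, Lipf and Gper1, and in 66.2% of all. The Rab3d window was 69.2% G and C, against a median of 52.4%, and the Pgc and Gif windows 54.8% and 44.0%. A match is a description of letters and not a binding site.

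Genes with the profile most like Pgc were sought among 8597 other protein-coding genes with a mean of at least 10 CPM, by root mean square distance of centred log2 CPM over the 4 libraries. The nearest were Cckar at 0.307, the cholecystokinin receptor through which hormone triggers zymogen release, Pnliprp1 at 0.383, a pancreatic lipase relative, Pdia2 at 0.403, a disulfide isomerase of exocrine cells, Gm12888 at 0.483, and Bhlha15 at 0.561. Cckar was at 41.3 and 89.7 CPM in the wild-type libraries, 0.762 in knockout 1 and 39.1 in knockout 2. Bhlha15, the Mist1 gene, was at 9.60 and 29.7 CPM in the wild-type libraries, 0.897 in knockout 1 and 20.8 in knockout 2. Rab3d, known as a Mist1 target, did not share that profile. Its nearest genes were Rpl11, Zbtb40, Ddx19b, Ahsa1 and Rfwd3, at 0.0125 to 0.0148. Among the members, Gif lay closest to Pgc at 0.343, Chia1 and Clps lay 0.345 apart, and Rab3d was 2.52 from Pgc.

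Relatives of the members were taken from 7 lists. In the order given below, the lists held 6, 9, 5, 5, 23, 13 and 8 tested genes. In the comparison of both knockout libraries with wild type, 0 of these genes passed over all genes by edgeR or limma voom. By edgeR 7 of them had an unadjusted p under 0.05, against 15.9% of all genes. DESeq2, which called 1044 of 14067 genes in all, called 6 of them: Lpl, Rph3al, Sytl4 and Esr1 lower, and Chil4 and Lipn higher. Neither count was read as a result about the lists. With knockout 1 alone, the counts called in each list below stand beside 3.41% of all genes called lower and 2.39% called higher by edgeR. Counts at least 4-fold below the wild-type mean in knockout 1 stand beside 4.66% of all genes, and all-gene medians are 0.00604 in knockout 1 and 0.0327 in knockout 2. Among 6 tested aspartic proteases other than the pepsinogens, 3 were higher and 3 lower in the fit. Ctse, cathepsin E of surface cells, was at 3737 and 2600 CPM in the wild-type libraries and 4318 and 2397 CPM in knockout 1 and 2. Ctsd, the lysosomal cathepsin D, was at 936, 722, 739 and 691 CPM in the same order, Bace1 at 30.6, 32.5, 27.9 and 30.7, and Bace2 at 295, 225, 421 and 351. Knockout 1 was at least 4-fold below the wild-type mean for 1 of the 6. That 1 gene was Cym, named after its values were seen, which encodes prochymosin, the milk-clotting zymogen. Of the pepsinogens, Pgc passed that mark, with a log2 difference of -5.43 from the wild-type mean, and Pga5 did not, at -1.47. Cym itself was low. It was at 1.21 and 2.71 CPM in the wild-type libraries, 0.359 in knockout 1 and 7.68 in knockout 2.

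Among 9 tested lipases, 6 were higher and 3 lower in the fit, with a median log2 fold change of 0.17 against -0.00173 over all genes. Knockout 1 was at least 4-fold below wild type for 3 of them, against 4.66% of all genes: Lpl, Pnliprp1 and Cel. Lpl, lipoprotein lipase, was at 518 and 479 CPM in the wild-type libraries, 18.6 in knockout 1 and 164 in knockout 2, and fell with knockout 1 alone (edgeR adjusted p = 0.0124), as did Cel (0.0457). Lipa, lysosomal acid lipase, rose with knockout 1 alone (0.0220), from 29.9 and 30.9 CPM to 92.4, and was at 37.0 in knockout 2. Pnliprp2 was at 70.4, 285, 37.5 and 337 CPM in wild type 1, wild type 2, knockout 1 and knockout 2, and Liph at 111, 89.4, 119 and 107.

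Chitinase relatives of Chia1 mostly had the opposite sign. Of 5 tested, 4 were higher in the fit, with a median log2 fold change of 1.38, and both knockout libraries lay above wild type for 3, against 26.3% of all genes. Chil4, a chitinase-like protein without chitinase activity, was at 1.86 and 7.87 CPM in the wild-type libraries, 520 in knockout 1 and 198 in knockout 2 (log2 fold change 6.22 ± 1.04, SE, 2 libraries a genotype, edgeR adjusted p = 0.209). Chit1, the other active mammalian chitinase, was at 9.84, 4.27, 17.9 and 18.9 CPM. Chid1 was at 44.5, 43.9, 42.2 and 54.7 CPM, and Ctbs at 7.42, 7.40, 6.14 and 5.24 CPM.

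Of 5 tested carriers and handlers of vitamin B12 other than Gif, 5 were lower in the fit, with a median log2 fold change of -0.36. With knockout 1 alone, 2 of 6 tested fell, namely Cd320, the cellular receptor for B12-transcobalamin (edgeR adjusted p = 0.0330), and Mmachc, which processes B12 inside cells (0.0499). Cd320 was at 23.2 and 27.3 CPM in the wild-type libraries, 6.41 in knockout 1 and 16.7 in knockout 2. Tcn2, transcobalamin, was at 116, 106, 85.0 and 86.9 CPM, Lmbrd1 at 62.5, 57.9, 49.9 and 49.6, and Mmadhc at 64.4, 60.7, 61.3 and 62.0.

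Of 23 tested genes besides Rab3d, 18 were lower and 5 higher in the fit, with a median log2 difference of -0.37 in knockout 1 and -0.44 in knockout 2, against 0.00604 and 0.0327 over all genes. The most abundant were Sytl2 at 508, 337, 359 and 229 CPM in wild type 1, wild type 2, knockout 1 and knockout 2, Rab27b at 337, 260, 252 and 208, Rab27a at 224, 156, 163 and 95.6, and Stxbp2 at 154, 121, 122 and 117. With knockout 1 alone, 3 of 23 fell, against 3.41% of all genes: Rph3al, a Rab effector (edgeR adjusted p = 0.0153), Sytl4, a granule tether (0.0358), and Syt7, a calcium sensor (0.0272). Syt7 was at 64.0 and 79.5 CPM in the wild-type libraries, 10.7 in knockout 1 and 37.4 in knockout 2. The relatives Rab3a, Rab3b and Rab3c were at most 14.8 CPM in any library, and Rab26, a further known Mist1 target, had 1, 5, 1 and 6 counts.

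Among 13 tested transcription factors of secretory cells, 8 were lower and 5 higher in the fit, and 0 passed with knockout 1 alone. Klf4 was at 868, 606, 735 and 529 CPM in wild type 1, wild type 2, knockout 1 and knockout 2, Gata4 at 391, 306, 372 and 315, Xbp1, the secretory stress regulator, at 324, 325, 236 and 342, and Hnf4a at 224, 160, 267 and 172. At least 4-fold below wild type in knockout 1 were 3 of the 13, against 4.66% of all genes: Bhlha15, Ptf1a and Rbpjl, the last 2 being factors of pancreatic acinar cells, at 0 and 3 counts in knockout 1.

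Of 8 tested receptors other than Gper1, 7 lay below both wild-type libraries in knockout 1 and 3 in knockout 2, against 39.2% and 34.6% of all genes. Chrm3, the muscarinic receptor that takes the nervous signal for secretion, was at 20.98 and 20.2 CPM in the wild-type libraries, 7.31 in knockout 1 and 20.3 in knockout 2, and fell with knockout 1 alone (edgeR adjusted p = 0.0317). Sctr, the secretin receptor, was at 60.8, 42.5, 29.1 and 47.7 CPM, and Sstr2 at 24.0, 20.2, 11.1 and 22.2. The nuclear estrogen receptor Esr1, named after its values were seen, was low in both knockout libraries, at 0.179 and 0.413 CPM against 4.11 and 4.90 CPM in wild type (log2 fold change -3.89 ± 0.63, SE, 2 libraries a genotype, edgeR adjusted p = 0.209), unlike the membrane receptor Gper1 in knockout 2.

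**Figure D4:**
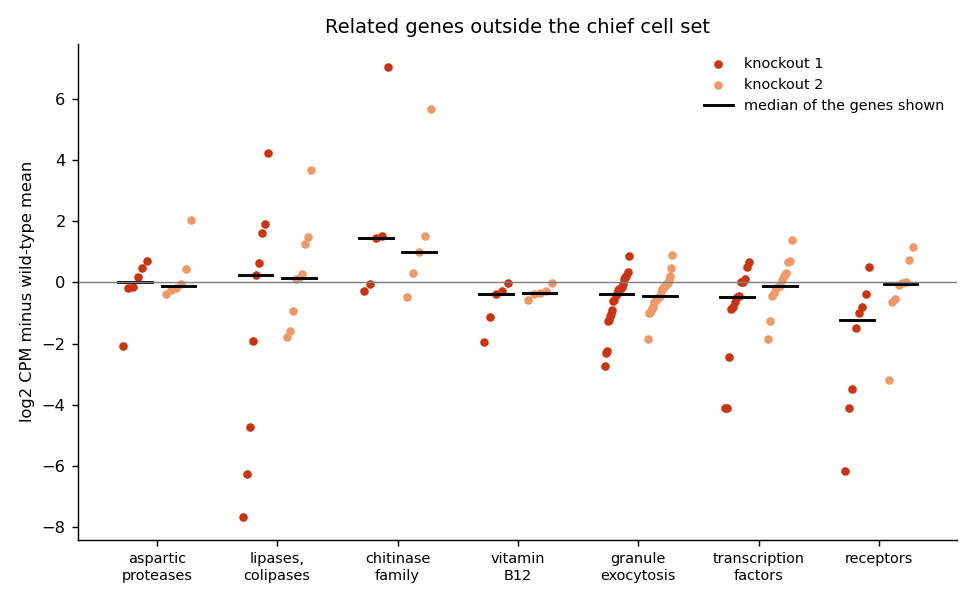
Difference in log2 CPM from the wild-type mean for each tested gene of 7 related lists, without the 8 chief cell genes; each point is 1 gene in knockout 1 or knockout 2, and black lines are medians. The medians of the exocytosis genes are -0.37 and -0.44, and single lipases and receptors reach below -6 in knockout 1.

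Clps and Pnliprp1 are best known from the pancreas, so pancreatic acinar markers were read beside them. Several defining enzymes were at or near 0: Prss2 had 0 counts in all libraries, Cpa1 at most 3, Ctrb1 at most 5 and Pnlip at most 12. Of 21 markers, 9 passed the filter on low counts. The list summed to 6652 and 15837 CPM in the wild-type libraries, 192 in knockout 1 and 8180 in knockout 2, and its largest part outside knockout 1 was Pla2g1b, a secreted phospholipase, at 6525, 15697, 62.6 and 8094 CPM. The trypsinogen Try4, named after its values were seen, was not near 0, at 63.5 and 61.0 CPM in the wild-type libraries, 0.448 in knockout 1 and 9.29 in knockout 2, and fell with knockout 1 alone (edgeR adjusted p = 0.0101). Try10, a further trypsinogen chosen in the same way, had 20.01 and 26.1 CPM in the wild-type libraries, 0 in knockout 1 and 8.30 in knockout 2. Other genes of the list went other ways. Try5 was low, at 0.363 and 0.781 CPM in the wild-type libraries, 0.224 in knockout 1 and 3.88 in knockout 2. Zg16 was at 0.807 and 0.260 CPM in the wild-type libraries, 9.06 in knockout 1 and 0.206 in knockout 2. Cela1, an elastase and the largest part of the sum in knockout 1, was at 22.8, 19.9, 116 and 54.5 CPM, and rose with knockout 1 alone (edgeR adjusted p = 0.0122).

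Markers of the other corpus cells were summed in the same way. The 12 parietal markers, of acid-secreting cells, summed to 19463 and 18631 CPM in the wild-type libraries, 1026 in knockout 1 and 6221 in knockout 2, led by Atp4a and Atp4b, subunits of the proton pump. All 12 were below both wild-type libraries in both knockout libraries, against 23.8% of all genes. With knockout 1 alone, 10 of the 12 fell by edgeR, against 3.41% of all genes, and with knockout 2 alone 0 did, against 0.0272%. The 6 mucous neck markers, Muc6 among them, summed to 1384 and 1023 CPM in the wild-type libraries, 12504 in knockout 1 and 8149 in knockout 2. Tff2 was the largest part in every library, followed by Muc6 in the wild-type libraries and by Gkn3 in the knockout libraries. The 6 pit markers summed to 115274 and 77163 CPM in the wild-type libraries, 65139 in knockout 1 and 51972 in knockout 2. Gkn1 and Gkn2 had the highest mean over all libraries. Both knockout libraries lay below both wild-type libraries for 4 of the 6, against 23.8% of all genes. The exceptions were Tff1, at 23729, 15549, 22803 and 15332 CPM in the same order, and Foxq1, at 289, 215, 340 and 254 CPM. The 5 endocrine markers, with Ghrl and Chga highest in the mean over all libraries, summed to 528, 1128, 100.2 and 499.6 CPM. Knockout 1 lay below both wild-type libraries for 4 of the 5, against 39.2% of all genes. The other was Chgb, at 8.55 and 19.1 CPM in the wild-type libraries, 19.5 in knockout 1 and 6.15 in knockout 2.

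Smooth muscle markers separated the libraries by number and not by genotype. The 5 genes summed to 296 CPM in wild type 1 and 383 in knockout 1, and to 1843 in wild type 2 and 1889 in knockout 2, with Myh11 at 86.5, 82.8, 591 and 419 CPM and Tagln at 74.1, 75.8, 402 and 368 CPM in that order. Wild type 2 and knockout 2 also had the higher level of their genotype for 6 of the 7 measured chief cell genes, Rab3d being the exception. For Pga5 the wild-type libraries differed only 1.13-fold. The share of all genes with this pattern was not counted. Deviations of same-numbered libraries correlated at 0.517 across genes, so the pattern was not read as particular to chief cell genes. Antral and squamous markers were high in knockout 1: Nkx6-3 was at 122 CPM and Pdx1 at 59.0, against at most 0.454 and 2.52 in the other libraries. The 11 squamous forestomach markers summed to 0.968 and 0.417 CPM in the wild-type libraries, 200.5 in knockout 1 and 13.999 in knockout 2, with Krt13 at 117 and Ivl at 41.5 CPM in knockout 1 and Trp63, Sprr3 and Krtdap at 0 counts in all. Immune markers, with Ptprc and Csf1r highest, summed to 7.76 to 24.8 CPM. The part of antral, squamous and muscle tissue in the chief cell values was not tested.

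**Figure D5:**
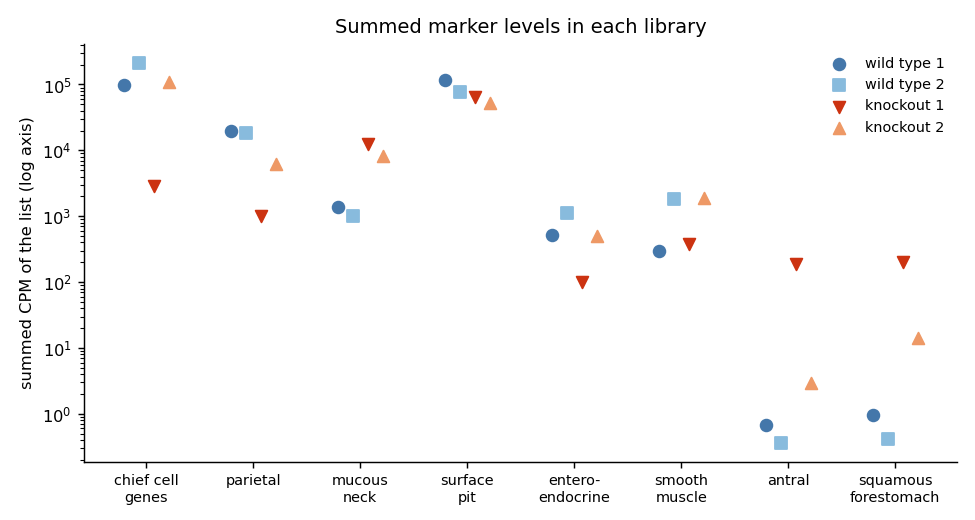
Summed CPM (log axis) of the 8 chief cell genes and of 7 marker lists in each library; each point is 1 library. Chief cell genes are lowest in knockout 1, parietal markers are low and neck markers high in both knockout libraries, and antral and squamous markers peak in knockout 1 at 191 and 200.5 CPM.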

How the data were processed

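Corpus mucosa was sequenced with a stranded mRNA kit, per the labels' protocols. The authors' deposited table holds estimated counts per gene, not normalized as far as the values show; the genome build was mm10, per the submitters' processing notes. For aligner, counting program and strand setting, nothing was given in the sources used here. Of nonzero values 35.0% were not whole (tolerance 1e-06), and the expected counts were rounded before testing. Of 34866 rows, 34652 matched GENCODE M21.

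Genotypes were compared with edgeR 4.0.16 in R 4.3.3 (quasi-likelihood, robust dispersion, TMM, filterByExpr with a minimum of 10 counts) on 14067 genes, with Benjamini-Hochberg adjustment over all of them at 0.05. SE is the log2 fold change over the square root of F. DESeq2 1.42.0, limma 3.58.1 (voom), other scalings, filters, a block on the sample number and leaving out each library were alternatives. Ratio intervals are exact and conditional on summed counts, at 95%. With 2 against 2, an exact permutation test of one gene cannot go below p = 0.33. The fit of 2 against 2 was tested on simulated data. Fold changes were recovered, but the share of false calls was above the adjusted threshold, so calls are less certain than it states. Fits with a lone knockout library, from which the edgeR calls named here come, were not simulated. Libraries of a genotype were not duplicates (chi-square per degree of freedom 139 and 272).

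The members and lists were chosen with earlier results of these data known. By rule, the 8 members, Muc6, the 4 most abundant genes of each related list (2 of each marker list), related genes past the adjusted threshold with both knockout libraries (0 by edgeR) and the 5 nearest profiles were named. All other genes, those called with knockout 1 alone or by DESeq2 included, were chosen after their values were seen.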

Additional observations from a re-analysis of the deposited data

How the results depend on the processing

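Genes called numbered 0 in the comparison of both knockout libraries, 12 without a filter on low counts and 1044 by DESeq2. Leaving out 1 library gave 0 to 851, with 851 without knockout 2 and 9 without knockout 1. Of 91 values of the 7 members under alternatives, 84 kept direction and side of the threshold. Clps (-7.64) and Pga5 (-1.53) changed side of the threshold without knockout 2, a fit with a lone knockout library. Signs turned for Pga5 under limma voom (-0.21), with the replicate block (-0.18) and without knockout 2 (-1.53), for Gif without wild type 2 (0.0472), and for Gper1 without wild type 2 (0.50) and without knockout 1 (0.67). The cause was not tested. Leaving out 1 library gave -1.53 to 1.05 for Pga5, -5.12 to 0.0472 for Gif, -3.81 to 0.67 for Gper1, -5.62 to -0.45 for Pgc, -8.21 to -0.86 for Chia1 and -7.64 to -0.92 for Clps, the low ends all without knockout 2. The median of the members in knockout 1 went from -4.78 to between -5.67 and -3.89 when 1 wild-type library was left out. That in knockout 2 went from 0.12 to between -0.77 and 0.33, and turned negative without wild type 1. Other scalings and prior counts gave medians of -4.84 to -4.77 in knockout 1 and 0.08 to 0.27 in knockout 2. With the sample number as a replicate block, 0 genes and 0 members passed (3349 genes unadjusted, against 2236), and the fold changes of Pgc, Gif, Chia1 and Clps were -2.85, -2.32, -4.30 and -4.19. Labels do not say that equal numbers pair samples; deviations of same-numbered libraries correlated at 0.517 across genes. Depth limits Gper1 (13 counts in knockout 1) and Lipf.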
